A study of Rattus norvegicus with 19 samples.

Results

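Transcriptionally active putative enhancers (TAPEs) whose RNA lay at a similar level in cortical, hippocampal and striatal neurons were selected from the deposited table of 27538 TAPEs. A TAPE was a member if its mean over all 19 libraries was at least 0.05 CPKM and if the highest of its 3 region means, with both treatments pooled, was under 1.4 times the lowest. CPKM is a read count divided by the length of the TAPE in kilobases and by the size of the library, the unit also known as RPKM. The rule gave 339 TAPEs, which are 18.1% of the 1870 TAPEs that reached this mean and 1.23% of all TAPEs. The other 1531 TAPEs of at least that mean serve as the comparison throughout. Because region means chose the members, these means are described and not tested.

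Enhancers are stretches of open chromatin that bind transcription factors and raise transcription of genes that can lie far away. Active enhancers are themselves transcribed, usually in both directions, into enhancer RNAs (eRNAs), which are mostly short-lived and scarce. In neurons, many enhancers are used in one cell type or brain region, and others respond to depolarization together with immediate early genes such as Fos.

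RNA was measured by total RNA-seq in primary neurons cultured from cortex, hippocampus or striatum of embryonic day 18 rats. After 11 days in vitro the cultures received vehicle or potassium chloride (KCl), which depolarizes neurons, for 1 h. Each region had 3 vehicle and 3 KCl libraries, except for striatum with 4 vehicle libraries, and no genetic change is named for any group. These numbers follow the sample titles, and the study's methods count striatum the other way, with more KCl than vehicle libraries. The sample labels give KCl at 25 mM, whereas the text of the series gives 10 mM. One library, cortex vehicle replicate 3, carries a striatal tissue label against a cortical title. The title was used, and all 19 libraries resembled their own region most. Among marker genes, Prox1 was highest in hippocampus, Drd1, Drd2 and Ppp1r1b in striatum, and Tbr1 and Fezf2 in cortex, with every library of that region above all others, and Isl1 could not be assessed.

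Library totals ran from 46.4 to 72.5 M reads. The median member had 14 reads in a library, against 10 for the other TAPEs, and 1.16% of the members' values were 0, against 5.79%. Summed over all libraries, members held between 71 and 2898 reads, with a median of 261. Reads carry no molecular identifiers, so they are not independent molecules. Within the 6 groups, the pooled coefficient of variation of a member had a median of 39.8%. A ratio under 1.4 therefore describes the means, and does not show that the regions are equal.

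One member carries designed oligonucleotides of the study, and these are shown because the largest KCl response among the members lay on it. It spans chr6:109311940-109315695 (rat assembly Rn6), 3756 bp long, with its near edge 8641 bp past the 3′ end of Fos. The study's guide RNA for Fos enhancer-3 is placed at position 109312925, which is 985 bp inside this TAPE. Capitals mark the 10 bases at the guide's 3′ end, next to which the Cas9 recognition motif would lie in the genome, and the strand is not given. The primers for eRNA3 and the 150-base RNA that the study fused to a guide are named after the same enhancer, and their positions are not given.
Fos enhancer-3 guide: gggtgggggcCTCTGACGGG
eRNA3 forward primer: gagagtgccgaaaaggaggg
eRNA3 reverse primer: acaaccttgcaggctgatga
eRNA3 fused RNA: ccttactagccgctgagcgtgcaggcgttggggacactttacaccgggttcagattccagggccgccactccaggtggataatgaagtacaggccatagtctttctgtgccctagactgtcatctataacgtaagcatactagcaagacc
The fused RNA has a GC content of 52.7% and contains 6 CpG dinucleotides.

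Members were found on 21 of 22 chromosomes. Their median length was 2040 bp (1168 to 5588 bp), against 1995 bp in the other TAPEs. Their mean level had a median of 0.111 CPKM and reached 0.883 CPKM. The share of members rose with the level: 12.6% of the TAPEs with a mean from 0.05 to 0.075 CPKM were members (84 of 665), 19.5% from 0.075 to 0.1 (66 of 338), 20.4% from 0.1 to 0.2 (108 of 529), 22.6% from 0.2 to 0.4 (59 of 261) and 28.6% above 0.4 (22 of 77). The median within-group coefficient of variation of members moved with it, from 57.2% in the lowest of these bands to 22.0% in the highest, and its part in the share of members was not tested.

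The highest region mean was striatum in 140 members, cortex in 116 and hippocampus in 83. Most members were less even when the treatments were taken apart. The ratio stayed under 1.4 in 194 members with vehicle libraries alone, in 146 with KCl libraries alone and in 85 with each of these, with median ratios of 1.35 and 1.46. These means rest on fewer libraries than the rule used.

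At the edge of the rule, the last members by ratio lay at chr18:3228915-3230981 (region means of 0.0479, 0.0670 and 0.0574 CPKM in cortex, hippocampus and striatum) and chr5:173145839-173147425 (0.190, 0.214 and 0.153 CPKM). The first TAPEs left out lay at chr3:20787869-20789987 (0.126, 0.126 and 0.0900 CPKM) and chr19:11790767-11794425 (0.0614, 0.0471 and 0.0660 CPKM). By mean level, the last members had 0.0501 CPKM (chr8:48777323-48779433) and 0.0505 CPKM (chr15:40698583-40700619), and the first TAPEs left out had 0.049999 CPKM (chr16:19818885-19820755) and 0.0499 CPKM (chr15:7965505-7967796). These limits separate TAPEs with almost the same values.

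The member with the highest level lay at chr3:38399364-38402194, 123339 bp from the start of Stam2, which encodes an endosomal sorting protein. It had 0.971 ± 0.0858 CPKM in cortex (SD, n = 6), 0.913 ± 0.0898 in hippocampus (n = 6) and 0.784 ± 0.142 in striatum (n = 7). The next by level lay nearest to Tceal8, the microRNA gene Mir3074, Efcab5, Ptprd and Fgf12, at means of 0.843, 0.748, 0.718, 0.659 and 0.632 CPKM. Ptprd encodes a receptor phosphatase of synapses, and Fgf12 a protein that binds sodium channels. Ptprd was the only gene within 1 Mb of its TAPE.

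The 3 members with the lowest ratio had region means that agreed to within 2%. At chr12:6990101-6992305, nearest to Uspl1, the means were 0.138 ± 0.0278, 0.139 ± 0.0707 and 0.137 ± 0.0458 CPKM in cortex (SD, n = 6), hippocampus (n = 6) and striatum (n = 7). At chr13:73344507-73345822, nearest to Lhx4, a homeobox gene of developing motor and pituitary cells, they were 0.107 ± 0.0621, 0.106 ± 0.0715 and 0.108 ± 0.0673 CPKM. At chr3:116768735-116770769, nearest to Sema6d, an axon guidance gene, they were 0.0902 ± 0.0415, 0.0900 ± 0.0482 and 0.0887 ± 0.0387 CPKM. In each of them the spread between libraries was far wider than the difference between region means.

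Members lay closer to gene starts than the other TAPEs. The distance from the TAPE centre to the nearest start site had a median of 26189 bp in members (quartiles 11847 and 66433 bp) and 44932 bp in the others (14542 and 140757 bp). No gene start lay within 100 kb of 62 members (18.3%), against 477 other TAPEs (31.2%), and the start was 100 to 500 kb away in 59 members (17.4%) against 426 (27.8%). Between 5 and 50 kb the order was the other way, with 110 members (32.4%) at 5 to 20 kb and 92 (27.1%) at 20 to 50 kb, against 25.3% and 21.2% of the others. Members had a median of 2 genes with a start within 100 kb and 16 within 1 Mb, against 1 and 14. TAPEs are not replicates, so no test was made.

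**Figure D1:**
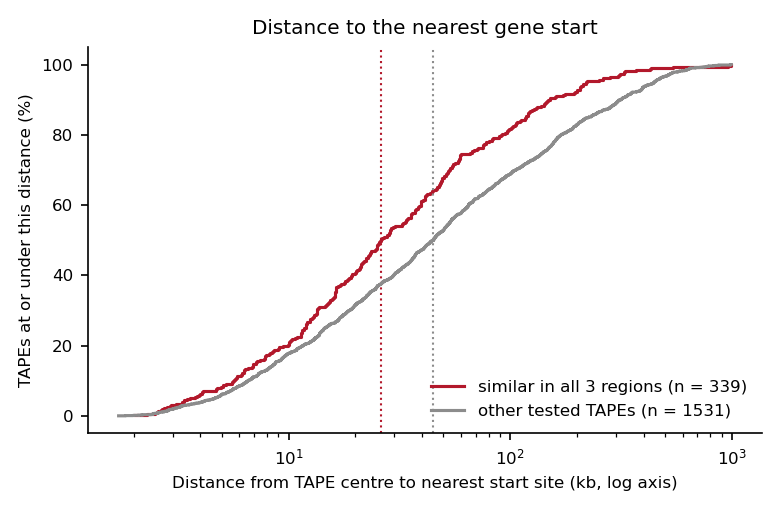
Cumulative share of TAPEs (y axis, %) by the distance from the TAPE centre to the nearest start site (x axis, kb, log scale) for the 339 TAPEs at a similar level in all 3 regions (red) and the 1531 other TAPEs of the same minimum mean (grey), with dotted lines at the medians of 26189 and 44932 bp. The red curve lies above the grey one between 5 and 500 kb.

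The difference in distance was not seen at every level. Members had the shorter median at 0.05 to 0.075 CPKM (22107 against 52102 bp), 0.1 to 0.2 CPKM (23075 against 41110 bp) and 0.2 to 0.4 CPKM (21760 against 39278 bp). At 0.075 to 0.1 CPKM the medians were 36390 and 37376 bp, and above 0.4 CPKM that of the 22 members was the longer one (37257 against 30003 bp). The share with no start within 100 kb was lower in members in every band, from 16.9% to 19.4%, against 26.1% to 34.6%.

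No member overlapped a gene of the deposited table, and the nearest gene edge was between 1059 and 986948 bp away, with a median of 13188 bp. The study kept only TAPEs at a set distance outside annotated genes, and its pairs reach to 1 Mb. The lack of overlap and both limits were thus fixed beforehand. With the strand of the nearest gene by start site taken into account, 213 members (62.8%) lay before its 5′ end and 126 (37.2%) past its 3′ end, against 58.5% and 41.5% of the others. The closest members to a start site lay 2036 bp from Trmt12, 2295 bp from Rnh1, which encodes a ribonuclease inhibitor, and 2500 bp from LOC100912618. The farthest lay 988751 and 957138 bp from LOC300308, the only gene within 1 Mb of either.

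The members' nearest starts belonged to 299 genes, of which 265 had 1 member and 34 shared 74 members. Zfr, which encodes an RNA-binding zinc finger protein, had 4, all within chr2:62095644-62126218 and before its 5′ end. Their means were 0.0987, 0.184, 0.182 and 0.125 CPKM from the lowest coordinate up, with ratios from 1.09 to 1.35. Cygb (cytoglobin), Lrrn3, Mrps6 and LOC300308 had 3 each, and those of Cygb lay within 6349 bp. The 3 near Cygb had changes with KCl from -0.38 to -0.28, and none of them passed the limma test described further on (adjusted p from 0.362 to 0.411). Of the 148 members with another of the 1870 TAPEs within 50 kb, the closest was itself a member in 44 (29.7%), against 97 of 656 other TAPEs (14.8%). Neighbouring TAPEs are not independent measurements.

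No member had its nearest start at one of the 43 region identity genes or 30 glial genes in the table, against 19 (1.24%) and 6 (0.392%) of the other TAPEs. Immediate early genes were nearest to 3 members (0.885%: Fos, Atf3 and Inhba) and to 17 others (1.11%). Genes of general cell maintenance were nearest to 3 members (0.885%), namely the tubulin gene Tuba1b, the ribosomal protein gene Rps4x and the 14-3-3 gene Ywhae, against 5 others (0.327%). Rbfox3, which encodes the neuronal marker NeuN, and Dync1h1, the dynein heavy chain, were each nearest to 1. MicroRNA genes were nearest to 7 members (2.06%) and 59 others (3.85%). Of these 7 members, 2 lay 35698 and 43411 bp from Mir384, and the others were nearest to Mir3074, Mir3556b, Mir672, Mirlet7c2 and Mir34a. Counts this small do not separate the sets.

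The nearest genes themselves were described by how much of their variation lay between regions. A profile over the libraries was worked out for each gene from the deposited r values with its TAPEs, which gives the order of the libraries without a scale. Over the 296 nearest genes with a profile (of 299), the share of variance that lay between regions had a median of 0.645 (quartiles 0.315 and 0.888), against 0.720 (0.344 and 0.920) for 1061 nearest genes of the other TAPEs. A gene with no region effect would have 0.111 on average. The share has no fold scale and cannot be set against the ratio of the TAPEs: over the genes of general cell maintenance in the table its median was 0.732, over pan-neuronal genes 0.951 and over region identity genes 0.977. The share was over 0.9 for 64 of the members' genes (21.6%) and for 306 of the others' (28.8%). Over every gene with a start within 100 kb the medians were 0.623 and 0.639.

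**Figure D2:**
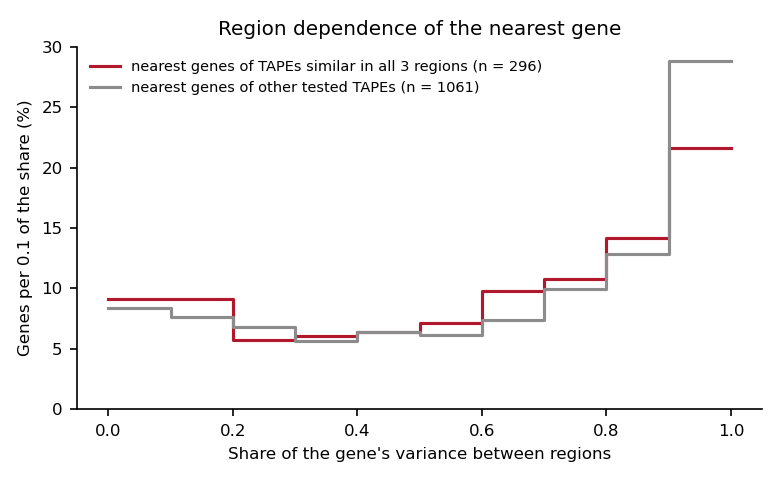
Share of variance between regions (x axis, 0 to 1) for the nearest genes of TAPEs at a similar level in all 3 regions (red, n = 296) and of the other TAPEs (grey, n = 1061), as the percentage of genes in each step of the share (y axis). The largest group in each set lies above 0.9, with 21.6% of the genes in red and 28.8% in grey.

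For Sema6d, whose TAPE was among the 3 members with the lowest ratio, regions accounted for 0.946 of the gene's variance, with group means, in SD units of its profile, of -1.43 and -1.003 in cortex vehicle and KCl, 0.07 and -0.15 in hippocampus, and 0.87 and 1.36 in striatum. The r of TAPE and gene over all libraries was 0.0263, and the rule favours a low r with a gene that varies mostly between regions. Inhba, a subunit of activin, was highest in cortex (share 0.985), and its TAPE had region means of 0.0733, 0.0718 and 0.0598 CPKM. Klf7, a transcription factor of neuronal growth, was lowest in striatum (share 0.977), where the higher of its 2 member TAPEs had 0.630 CPKM, between 0.535 in hippocampus and 0.665 in cortex. For Fos the share was 0.0608. Sema6d, Inhba and Klf7 are thus examples with a high share. Other named members had nearest genes with a low one, such as Mir3074 (0.0598) and Prss47 (0.185).

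To see whether depolarization moved these TAPEs, KCl and vehicle libraries were set against each other over all 3 regions, with region as a covariate, in limma on log2(CPKM + 0.05) with Benjamini-Hochberg adjustment over the 1870 TAPEs. Of the members, 26 (7.67%) passed an adjusted p of 0.05, where 6.84% of all TAPEs tested did. Higher with KCl were 2 members (0.590%, against 1.66% of all), and 24 were lower (7.08%, against 5.19%). Each of the 26 had the same sign in the 3 regions, which the pooled contrast that chose them favours. With both directions together, the share of members called was near that of all TAPEs. By direction, the members' share was the smaller one for rises, which rests on 2 members, and the larger one for falls.

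**Figure D3:**
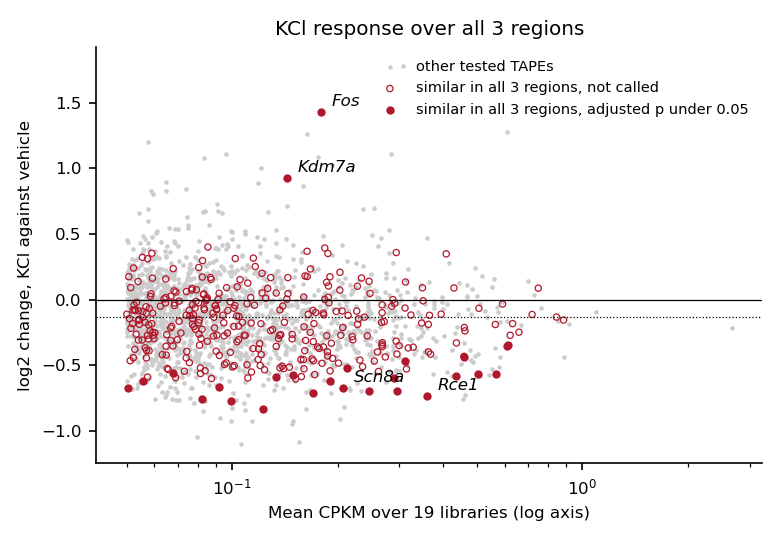
Log2 change of KCl against vehicle over all 3 regions (y axis) by mean CPKM (x axis, log scale) for the 1531 other TAPEs (grey), 313 members not called (open red) and 26 members with an adjusted p under 0.05 (filled red). The dotted line is the median of all 1870 TAPEs, at -0.13. The TAPEs nearest Fos (1.43) and Kdm7a (0.93) stand above all other members, and the remaining called members lie below the median.

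The TAPE 13385 bp from the start of Fos, which encodes a subunit of the AP-1 transcription factor, rose most. In cortex it had 0.0512, 0.0477 and 0.0712 CPKM with vehicle and 0.338, 0.309 and 0.249 CPKM with KCl. In hippocampus the values were 0.0942, 0.142 and 0.0386 CPKM, and 0.284, 0.183 and 0.177 CPKM. In striatum they were 0.0469, 0.0751, 0.119 and 0.106 CPKM, and 0.297, 0.398 and 0.378 CPKM. In every region the lowest KCl library was above the highest vehicle library. Treatments were apart in all 3 regions in 3 of the 339 members (0.885%) and in 0.963% of all TAPEs tested. This count lets the direction differ between regions: the TAPE nearest Ssu72, given further on, is among the 3 and changes sign.

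Over all regions the Fos TAPE changed by 1.43 on the log2 scale (SE 0.17, limma adjusted p = 1.88e-06). Cortex gave 1.71 (adjusted p = 0.00676), striatum 1.598 (adjusted p = 0.0106) and hippocampus 0.95 (adjusted p = 0.333), and the interaction of KCl and region had an adjusted p of 0.771. With 721 reads in all, this TAPE was a member only with the treatments pooled: its ratio was 1.62 over vehicle libraries alone and 1.66 over KCl libraries alone. It was the only member called in cortex, where 0.321% of all TAPEs tested were called, and in striatum, where 1.23% were. The cortex call was lost without vehicle replicate 2, KCl replicate 1 or KCl replicate 2, and the striatum call without vehicle replicate 4, KCl replicate 5 or KCl replicate 7. The call over all regions held without any single library.

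Fos has 2 more TAPEs of this level, on its 5′ side, and neither is a member. The one at chr6:109261263-109264039 had 0.0529 CPKM in cortex, 0.0324 in hippocampus and 0.370 in striatum. Its change with KCl over all regions was 1.26 (SE 0.16, adjusted p = 3.26e-06). The one at chr6:109280836-109283088 had 0.0580, 0.0745 and 0.182 CPKM and a change of 0.53 (SE 0.20, adjusted p = 0.0945). The member on the 3′ side had 0.178, 0.153 and 0.203 CPKM in the same order. The deposited global r with Fos was 0.948 for the member, 0.703 and 0.636 for the others. The rule itself favours this order. The others had region ratios of 11.4 and 3.14, against 1.32 for the member, while the region share of the Fos variance was 0.0608. The order therefore does not rank the TAPEs by their tie to Fos.

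The second member that rose lay at chr4:66977035-66981159, 23365 bp from the start of Kdm7a, which encodes a histone demethylase, and before its 5′ end. In cortex it had 0.0777, 0.0836 and 0.0720 CPKM with vehicle and 0.303, 0.257 and 0.198 CPKM with KCl. In hippocampus the values were 0.0686, 0.1002 and 0.0791 CPKM, and 0.263, 0.128 and 0.218 CPKM. In striatum they were 0.0725, 0.147, 0.0669 and 0.0712 CPKM, and 0.156, 0.125 and 0.242 CPKM. The treatments did not overlap in cortex and hippocampus, and in striatum 1 vehicle library lay above the lowest KCl library. The change was 0.93 (SE 0.17, adjusted p = 0.000741) and held without any single library.

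Among the 24 lower members, changes ran from -0.83 to -0.35. The smallest adjusted p belonged to chr7:142513284-142517644, 60208 bp from the start of the sodium channel gene Scn8a. With vehicle it had 0.173, 0.272 and 0.279 CPKM in cortex, 0.227, 0.320 and 0.295 in hippocampus, and 0.222, 0.286, 0.237 and 0.301 in striatum. With KCl it had 0.222, 0.123 and 0.191 CPKM in cortex, 0.148, 0.174 and 0.111 in hippocampus, and 0.104, 0.127 and 0.127 in striatum. The treatments did not overlap in hippocampus and striatum, and did in cortex. The change over all regions was -0.67 (SE 0.15, adjusted p = 0.00394).

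Close to Rce1, which encodes a protease of prenylated proteins, a member at chr1:219866328-219868137 fell by 0.73 on the log2 scale (SE 0.16, adjusted p = 0.00427), with its centre 3306 bp from the start. With vehicle it had 0.470, 0.267 and 0.451 CPKM in cortex, 0.401, 0.676 and 0.490 in hippocampus, and 0.496, 0.512, 0.305 and 0.468 in striatum. With KCl the values were 0.298, 0.325 and 0.307 CPKM, then 0.184, 0.175 and 0.120, and 0.250, 0.377 and 0.254. The treatments were apart in hippocampus alone.

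Near Desi1, a deSUMOylating enzyme gene, the member at chr7:123233442-123234827 fell by 0.57 (SE 0.13, adjusted p = 0.00454). It had 0.509, 0.527 and 0.568 CPKM with vehicle and 0.435, 0.316 and 0.285 with KCl in cortex, 0.523, 0.621 and 0.640 and then 0.265, 0.496 and 0.517 in hippocampus, and 0.470, 0.552, 0.784 and 0.848 and then 0.422, 0.372 and 0.401 in striatum. No KCl library reached the lowest vehicle library of its region. Near Mrps5, a mitochondrial ribosomal protein gene, the member at chr3:120162315-120164183 fell by 0.70 (SE 0.15, adjusted p = 0.00457). Its treatments did not overlap in cortex and hippocampus, and in striatum 1 of 3 KCl libraries (0.326 CPKM) lay among the vehicle libraries.

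**Figure D4:**
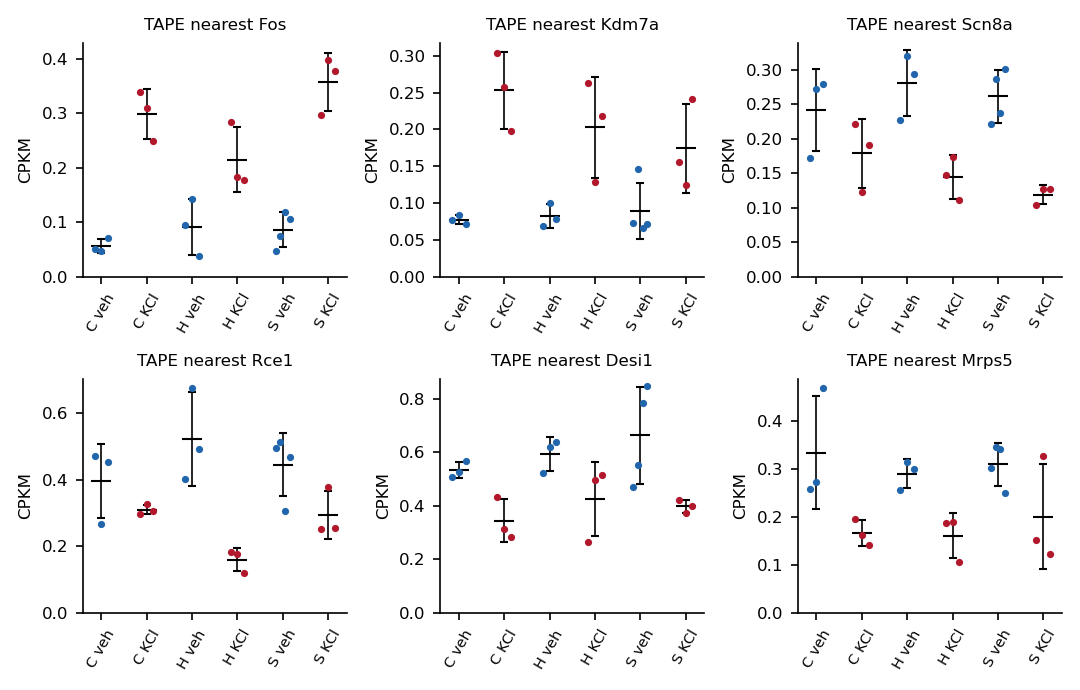
CPKM of 6 members in every library (y axis, from 0) by group (x axis, C cortex, H hippocampus, S striatum, veh vehicle), with vehicle in blue, KCl in red and black bars for the mean ± SD (n = 3, and 4 in striatum vehicle). The TAPEs nearest Fos and Kdm7a have the higher mean with KCl in each region, and the other 4 have the lower one.

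The 24 lower members lay near genes of varied function. After the 4 just given, the next 4 by adjusted p lay nearest to Prss47 (-0.57), LOC100359583 (-0.59), Fem1b (-0.60) and Pnma2 (-0.76), with SEs from 0.13 to 0.17. A further 3 lower members had adjusted p values of 0.00786 to 0.00792. They lay 8417 bp from Psen2, a presenilin gene of the gamma-secretase complex (-0.71), 13781 bp from Mllt6 (-0.83) and 18292 bp from Cela3b (-0.70). The remaining 13 had adjusted p values from 0.0263 to 0.0495. Their nearest genes were Amer2 (-0.68), Nfic (-0.44), Sept11, a septin gene (-0.62), Fry (-0.77), Cetn3, a centrin gene (-0.57), Mirlet7c2, a let-7 microRNA gene (-0.52), Klf7 (-0.35), Spred2, an inhibitor of MAP kinase signalling (-0.59), Gkap1 (-0.62), Kdm3a, a histone demethylase gene (-0.67), Jph3 (-0.36), Hnrnph1 (-0.56) and Zfp955a (-0.47). The 11 lower members from Scn8a to Cela3b kept their call without any single library, and the other 13 lost it without at least 1. Treatments were apart in all 3 regions for 2 of the 26 called members, in 2 regions for 13, in 1 region for 8 and in none for 3. Over all TAPEs tested, called or not, they were apart in all 3 regions in 0.963%. The 26 were chosen by the same contrast, so these counts describe them and add no support. Without cortex vehicle replicate 3, the library whose labels disagree, 15 of the members were called, and without striatum vehicle replicate 4, 17 were. Calls over all TAPEs tested moved as well, from 82 to 146 without 1 library, against 128 with every library.

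The downward shift was shared with all TAPEs and depends on the scaling. The median log2 change of the members was -0.18, against -0.13 in the other TAPEs and in all 1870 together. Members came to -0.12 and the others to -0.09 in cortex, -0.22 and -0.16 in hippocampus, and -0.26 and -0.15 in striatum. When each library was centred on its median, all changes rose by 0.13, and the medians became -0.05 and 0.00. Then 14 members were called, 3 higher (0.885%, against 2.51% of all TAPEs tested) and 11 lower (3.24%, against 1.98%), and the 11 were all among the 24. The third was at chr5:2071167-2074146, nearest to Eloc, with a change of 0.48 after centring (adjusted p = 0.0271) and 0.35 before (SE 0.13, adjusted p = 0.0945).

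Summed over the members, CPKM ran from 52.7 to 64.3 in cortex vehicle and 50.9 to 53.5 in cortex KCl libraries, from 54.3 to 61.6 and 47.5 to 50.5 in hippocampus, and from 60.4 to 63.9 and 47.2 to 49.7 in striatum. The treatments did not overlap in hippocampus and striatum. The members' share of all TAPE reads was between 10.8% and 12.2%, and lay lower with KCl in each region without overlap, which in cortex was by the narrowest margin (11.41% as the highest KCl value and 11.42% as the lowest vehicle value). Changes were lower than 0 in all 3 regions for 133 members (39.2%) and 472 other TAPEs (30.8%), and higher than 0 for 20 (5.90%) and 131 (8.56%). In bulk cultures, a smaller share of cells that make an RNA and less RNA per cell cannot be told apart.

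By level, the share of members called was 3.57% at 0.05 to 0.075 CPKM and 27.3% above 0.4 CPKM, against 3.44% and 23.6% in the other TAPEs. In between, members had 4.55%, 6.48% and 11.9% and the others 6.62%, 7.60% and 9.41%, so calls moved with the level in both sets and neither set was the higher one throughout. The median change of the members was the lower one in every band, from -0.12 to -0.23 against -0.09 to -0.18.

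In hippocampus limma called 0 members, where 0.0535% of all TAPEs tested were called, and 47 had an unadjusted p under 0.05 (13.9%, against 13.3% of all). limma voom on the recovered reads also called 0. The interaction of KCl and region called 0 members, again beside 0.0535% of all, and 27 had an unadjusted p under 0.05 (7.96%, against 8.24%). With voom it was 0 as well. These single-region tests rest on 6 or 7 libraries each.

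The 2 other immediate early genes had TAPEs that were not called. At chr17:51913712-51916386, 2553 bp from the start of Inhba, the change was -0.35 (SE 0.17, limma adjusted p = 0.201). The Inhba profile itself was not called either, at -0.03 SD units with KCl (exact permutation within regions, adjusted p = 0.841). At chr13:109907833-109910241, 59405 bp from Atf3, a transcription factor gene induced by stress, the change was 0.04 (SE 0.18, limma adjusted p = 0.941). The Atf3 profile itself was 1.80 SD units higher with KCl (exact permutation within regions, adjusted p = 0.00187). Of the members nearest to genes of the maintenance list, 0 of 3 passed in limma, and the same was so for the single members nearest to Rbfox3 (-0.33) and Dync1h1 (-0.50).

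The genes nearest to the members were tested by exact permutation of treatment within regions, over 14000 arrangements with a smallest possible p of 7.1e-05. Of 296 genes, 35 were higher with KCl (11.8%, against 5.96% of all 16732 genes with a profile) and 49 were lower (16.6%, against 14.7%). For the other TAPEs 116 of 1061 nearest genes were higher and 154 lower, which are shares near those of the members. The larger share of higher genes than among all genes is thus not particular to the members. Fos was 1.83 SD units higher (adjusted p = 0.00187) and Kdm7a 1.43 (adjusted p = 0.00275), so both members that rose had a nearest gene that rose. For Fos, all KCl libraries of a region lay above all its vehicle libraries.

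Of the 24 members that fell, the nearest gene was lower for 4, higher for 2 and not called for 18, and the share that was lower is near the 16.6% of all the members' nearest genes. The 4 were Pnma2, Nfic, a transcription factor gene, Zfp955a, and Jph3, which encodes a junctophilin that links plasma membrane and endoplasmic reticulum. They were 1.11, 1.29, 1.504 and 0.36 SD units lower. The 2 that rose were Amer2 (1.09) and Hnrnph1 (0.28), a splicing factor gene.

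Deposited correlations of members with genes were narrower than those of the other TAPEs, which the rule itself favours, since it limits how far a TAPE can vary between regions. Of 7355 pairs of a member and a gene within 1 Mb, 169 had a global r over 0.5 (2.30%), against 3977 of 29426 (13.5%). At least 1 such pair was held by 101 members (29.8%) and 1065 others (69.6%). The highest r of a member had a median of 0.408, against 0.615, and it belonged to the nearest gene in 44 members (12.98%) and 316 others (20.6%).

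**Figure D5:**
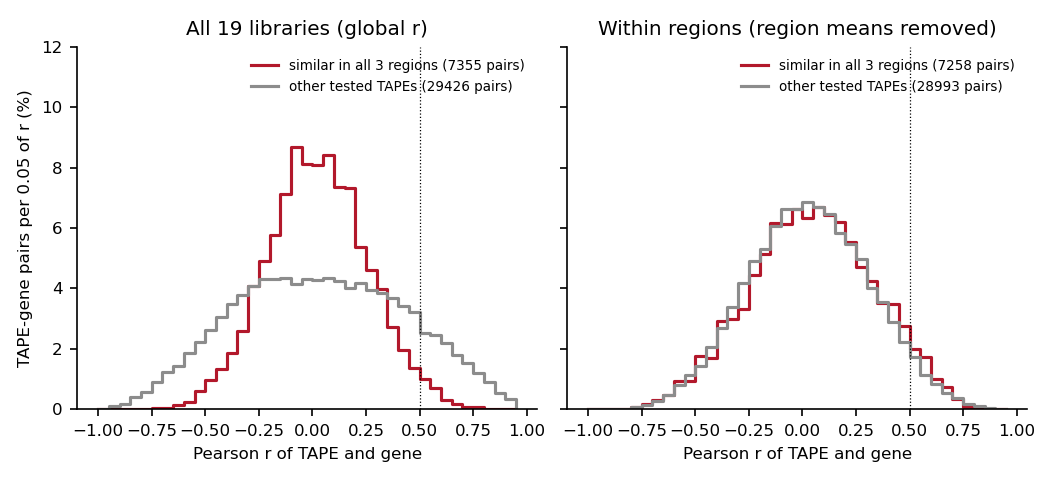
Distribution of the Pearson r of TAPE and gene (x axis) as the percentage of pairs in each step of 0.05 (y axis), over all 19 libraries (left) and with region means removed from both (right), for TAPEs at a similar level in all 3 regions (red) and other TAPEs (grey). The grey curve is the wider one in the left panel, with 13.5% of pairs over 0.5 (dotted line) against 2.30%, while the curves nearly coincide in the right panel, with 4.90% against 5.88%.

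Within regions this difference was not seen. The deposited r over the libraries of a region exceeded 0.5 in 19.1% of the members' pairs and 17.5% of the others' in cortex, in 20.03% and 19.01% in hippocampus, and in 18.02% and 16.7% in striatum. These rest on 6, 6 and 7 libraries. With the region means removed from TAPE and gene, 5.88% and 4.90% of pairs exceeded 0.5 over the 19 libraries, and with group means removed, which takes out KCl too, 4.41% and 4.08%. Pairs share libraries and neighbouring genes, so these shares are descriptions. An r over 0.5 in each of the 3 regions was found for 106 pairs of 71 members (20.9% of members) and 280 pairs of 188 others (12.3%). Members had more genes within reach than the others, so these shares per TAPE favour them.

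Of the 106 pairs, 11 were within 100 kb, where 868 of all 7355 pairs of members lay. The pair with the highest minimum over the regions was that of the TAPE and Fos, with r of 0.979 in cortex, 0.812 in hippocampus and 0.969 in striatum. Next came the member at chr3:11152816-11155149 with Fubp3, 884289 bp away (0.774, 0.880 and 0.764), and the member near Mrps5 with Ap4e1, a subunit of a trafficking adaptor, 678572 bp away (0.758, 0.871 and 0.765). With region means removed, the mean r of members was 0.053 for genes within 100 kb and 0.044 for genes at 900 to 1000 kb, against 0.056 and 0.018 for the other TAPEs.

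After Fos, the highest global r values of members were 0.826 with Zc3h18 for the TAPE nearest Jph3, 0.774 with Creb1 for the TAPE nearest Klf7, 0.766 with Chd2, 0.751 with Mk1 and 0.749 with Mrps11. Creb1 encodes a transcription factor of activity responses and Chd2 a chromatin remodeller. None of these 5 genes was the nearest by start site, and their distances were 719617, 402431, 82592, 941820 and 822564 bp. With the global r of the Kdm7a TAPE at 0.549, both members that rose with KCl had their nearest gene as the best correlated one. Both genes also rose with KCl in the same libraries, so these r values are not separate from the KCl result.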

How the data were processed

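Per the labels and the study's methods, the authors trimmed reads with Trim Galore 0.4.5, aligned them with STAR to Rn6 and counted reads over TAPEs in SeqMonk. TAPEs are intergenic open chromatin regions with RNA on both strands, defined by the authors from pooled libraries. Deposited TAPE values are RPKM (called CPKM by the study). Deposited correlations are a score, the authors' Pearson r of TAPE and gene. TAPE and gene positions and distances are other deposited columns, and the upstream or downstream column, which ignores strand, was not used.

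Members, lists and tests were chosen with earlier results of these data known. CPKM times length and library size gave whole reads (tolerance 0.01) for 100% of values. Tests used limma 3.58.1 in R 4.3.3 (lmFit, eBayes with trend, two-sided) on log2(CPKM + 0.05), which understates changes of low TAPEs. Gene profiles were worked out from the deposited r for 16732 of 17715 symbols (94.5%), of which 5761 needed the regional r, and were tested by exact permutation of treatment within regions with Benjamini-Hochberg adjustment. Scripts were tested on simulated data. Alternatives were other pseudocounts (0.01 and 0.5), level limits, centring, voom, blocks and left-out libraries. The study's methods call the replicates biological but do not say whether they are separate cultures. The p-values therefore measure the spread between these samples. Named TAPEs are up to 8 called members in each direction by smallest p for KCl (3 where fewer passed), every member called in a region, the 6 with the highest level, the 3 with the lowest ratio, the 2 on either side of each limit, up to 3 per gene list, the 6 with the highest r, 3 pairs with a high r in each region, and extremes of distance and length. The lower members beyond the first 8, the members near microRNA genes, those sharing a nearest gene and the other Fos TAPEs were named after their values were seen. Python 3.11.15, pandas 2.3.3 and matplotlib 3.10.9 were used.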

Additional observations from a re-analysis of the deposited data

Results flagged for a closer look

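In the 4 striatum vehicle libraries, 1 library stood far above the other 3 for 5 of the 44 named members, where chance gives about 1 in 20. At the TAPE nearest Fgf12, replicate 4 had 1.13 CPKM and the others 0.709 to 0.737. At chr18:3228915-3230981, replicate 8 had 0.142 CPKM and the others 0.0501 to 0.0596. At the TAPE nearest Rnh1, replicate 2 had 0.316 CPKM and the others 0.134 to 0.149. At the TAPE nearest Kdm7a, replicate 4 had 0.147 CPKM and the others 0.0669 to 0.0725. At chr7:22053510-22056354, replicate 6 had 0.206 CPKM and the others 0.0866 to 0.0991. The 5 values come from all 4 libraries.

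The member at chr5:173145839-173147425, 6332 bp from the start of Ssu72, had KCl changes of opposite sign between regions. Every KCl library was above every vehicle library in cortex (0.217, 0.265 and 0.267 against 0.162, 0.0782 and 0.1498 CPKM, a log2 change of 0.77) and in hippocampus (0.254, 0.356 and 0.262 against 0.111, 0.152 and 0.148 CPKM, 0.86). In striatum every KCl library was below every vehicle library (0.143, 0.128 and 0.109 against 0.155, 0.178, 0.185 and 0.174 CPKM, -0.34). The interaction had an unadjusted limma p of 0.00215 and an adjusted p of 0.337, so the difference does not pass over all TAPEs tested.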

How the results depend on the processing

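Over all regions, 19 to 30 members were called with other pseudocounts, a mean of at least 0.1 CPKM, voom (25) or the replicate block (19), against 26. The 30 belong to the limit of 0.1 CPKM, where 189 members were tested in place of 339, here and in the single regions. Without a filter on low TAPEs 6 were called, after centring 14, and without 1 library 15 to 33. Over all TAPEs tested, the fits without 1 library called 82 to 146, against 128 with every library. In cortex, the count of 1 became 0 with no filter or with the block, and 2 after centring, with voom or in one fit of all 6 groups. In hippocampus, 0 became 1 with a mean of at least 0.1 CPKM, after centring or in one fit. In striatum, 1 became 4 with a mean of at least 0.1 CPKM, 0 with no filter, and 2 with voom or in one fit. Without 1 library these counts were 0 to 1 in cortex, 0 in hippocampus, 0 to 1 in striatum and 0 for the interaction. Over all TAPEs tested they were 3 to 5, 0, 0 to 8 and 1 to 2 in the same order. The causes were not tested. No filter tests many more TAPEs at once, and the one fit shares the spread of all groups.

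Same-numbered vehicle and KCl libraries did not deviate together (r of their deviations from -0.0418 to 0.0142 in cortex and hippocampus), and striatum numbers pair none, so the numbers were not taken as pairs. The 26 called members kept their direction under every alternative run. Without 1 library their limma calls held 360 times and were lost 134 times, and under the other settings they held 120 times and were lost 56 times. The members nearest Amer2, Klf7 and Jph3 were called in 15, 9 and 5 of the 19 fits without 1 library. The change of the TAPE nearest Atf3 ran from -0.0598 to 0.121 without 1 library, and was below 0 when cortex KCl replicate 3 (-0.0598), hippocampus KCl replicate 1 (-0.00483) or cortex vehicle replicate 1 (-0.0119) was left out.

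The rule gave 125 members under a ratio of 1.2, 578 under 1.6, 295 from vehicle and 250 from KCl libraries alone, 189 with a mean of at least 0.1 CPKM, and 314 to 356 without 1 library. It gave 325 without cortex vehicle replicate 3, of which 291 were among the 339. To the nearest gene edge the members' median distance was 13188 bp, against 22086 bp. Over an r of 0.7 there were 0.136% of the members' pairs, and 5.88% exceeded 0.5 within regions. Without 1 library, a test added after seeing the data, 31 to 36 nearest genes were higher with KCl and 39 to 53 lower. At a median of 14 reads per library, small differences in most members are not detectable.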
